A study of Mus musculus with 6 samples.

Results

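The 6 mouse genes of the platelet-derived growth factor (PDGF) family, namely the ligand genes Pdgfa, Pdgfb, Pdgfc and Pdgfd and the receptor genes Pdgfra and Pdgfrb, were followed in RNA sequencing of 3 immortalized mouse embryonic fibroblast (MEF) lines. They were chosen by name from the count files, which held 27179 genes, and all 6 passed the filter on low counts that left 11934 genes for testing. The lines came from C57BL/6 mice and were grown in high-glucose DMEM with 10% FBS, and each gave 2 libraries from independent RNA preparations. Cry/Per_KO cells carried cry1-/-, cry2-/-, per1-/- and per2-/- alleles. Per/Nr1d_KO cells carried nr1d1-/- and nr1d2-/- together with per1-/- and per2-/-, and Cry/Per/Nr1d_KO cells carried all these null alleles, so no line had the PER1 or PER2 repressor of the circadian clock and no line was wild type. The Cry/Per/Nr1d_KO line was a single clone made from Cry/Per_KO cells with CRISPR/Cas9, and each genotype was represented by 1 line, so genotype and cell line cannot be told apart.

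PDGF ligands are secreted dimers that act on receptor tyrosine kinases at the cell surface. A ligand dimer brings a pair of receptor molecules together, and the kinases then phosphorylate each other and recruit adaptors that pass the signal to the RAS-MAP kinase, PI3-kinase and phospholipase C pathways. PDGF-A, PDGF-B and PDGF-C are known ligands of PDGFRα, PDGF-B and PDGF-D of PDGFRβ, and PDGF-C and PDGF-D are released as latent forms that proteases activate. PDGFRα is a widely used marker of fibroblasts and mesenchymal progenitors, PDGFRβ is used to mark pericytes and vascular smooth muscle cells (mural cells), and cultured fibroblasts usually carry both.

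The genotype labels and the names under which the counts were deposited disagreed for 4 of the 6 libraries, on which pair was Cry/Per_KO and which was Cry/Per/Nr1d_KO. The genotype label was followed, so each pair of libraries is named by its label, and every direction given for these 2 pairs is that of the labels and holds only if they do. The assignment of the Per/Nr1d_KO pair was the same in both sources. If the other reading holds, the comparison of Cry/Per_KO with Cry/Per/Nr1d_KO changes sign, and the comparisons of Per/Nr1d_KO with each of these lines change places. The RNA of the 6 targeted clock genes was present in every library, from 1004 to 9337 normalized counts, and each was higher in both libraries labelled Cry/Per_KO than in both labelled Cry/Per/Nr1d_KO. Cry1 gave 5323 and 5478 in the former and 1698 and 1724 in the latter, beside 1535 and 1592 in Per/Nr1d_KO. Nr1d1 gave 9337 and 9249, 3158 and 3146, and 5359 and 4838 in the same order, so Per/Nr1d_KO lay above the pair labelled Cry/Per/Nr1d_KO and below the pair labelled Cry/Per_KO. NR1D1 and NR1D2 are known repressors of Cry1 and Nr1d1. By the labels, the pair that kept NR1D had more RNA of these genes than the pair without it, and by the names of the deposited counts it had less, so on this background these genes went against the labels and with the names. The groups were not reassigned on measured values, and the line names Cry/Per_KO and Cry/Per/Nr1d_KO below always mean the libraries so labelled. The calls of Pdgfc, Pdgfra and Pdgfrb as lower in Per/Nr1d_KO than in both other lines are the same under either reading. Library totals ran from 53764390 to 85927236 counts, and the biological coefficient of variation over the 11934 genes tested was 0.0393.

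A difference was called when edgeR's quasi-likelihood test gave a Benjamini-Hochberg adjusted p under 0.05 over the 11934 genes and the fold change was above 1.75 (0.81 on the log2 scale). Levels below are counts scaled by library size and TMM factor to the mean effective library size of 65881749. Per/Nr1d_KO cells had less RNA of both receptors and of the ligand Pdgfc than either other line. Pdgfb was lowest in the pair labelled Cry/Per_KO, Pdgfd was highest in Per/Nr1d_KO cells, and Pdgfa moved by less than the fold limit everywhere. In bulk RNA, fewer cells with a gene and less of its RNA per cell cannot be told apart. Summed over the 6 genes, the normalized counts were 37087 and 38132 in the pair labelled Cry/Per/Nr1d_KO, 31707 and 32486 in the pair labelled Cry/Per_KO, and 14677 and 14850 in Per/Nr1d_KO.

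**Figure D1:**
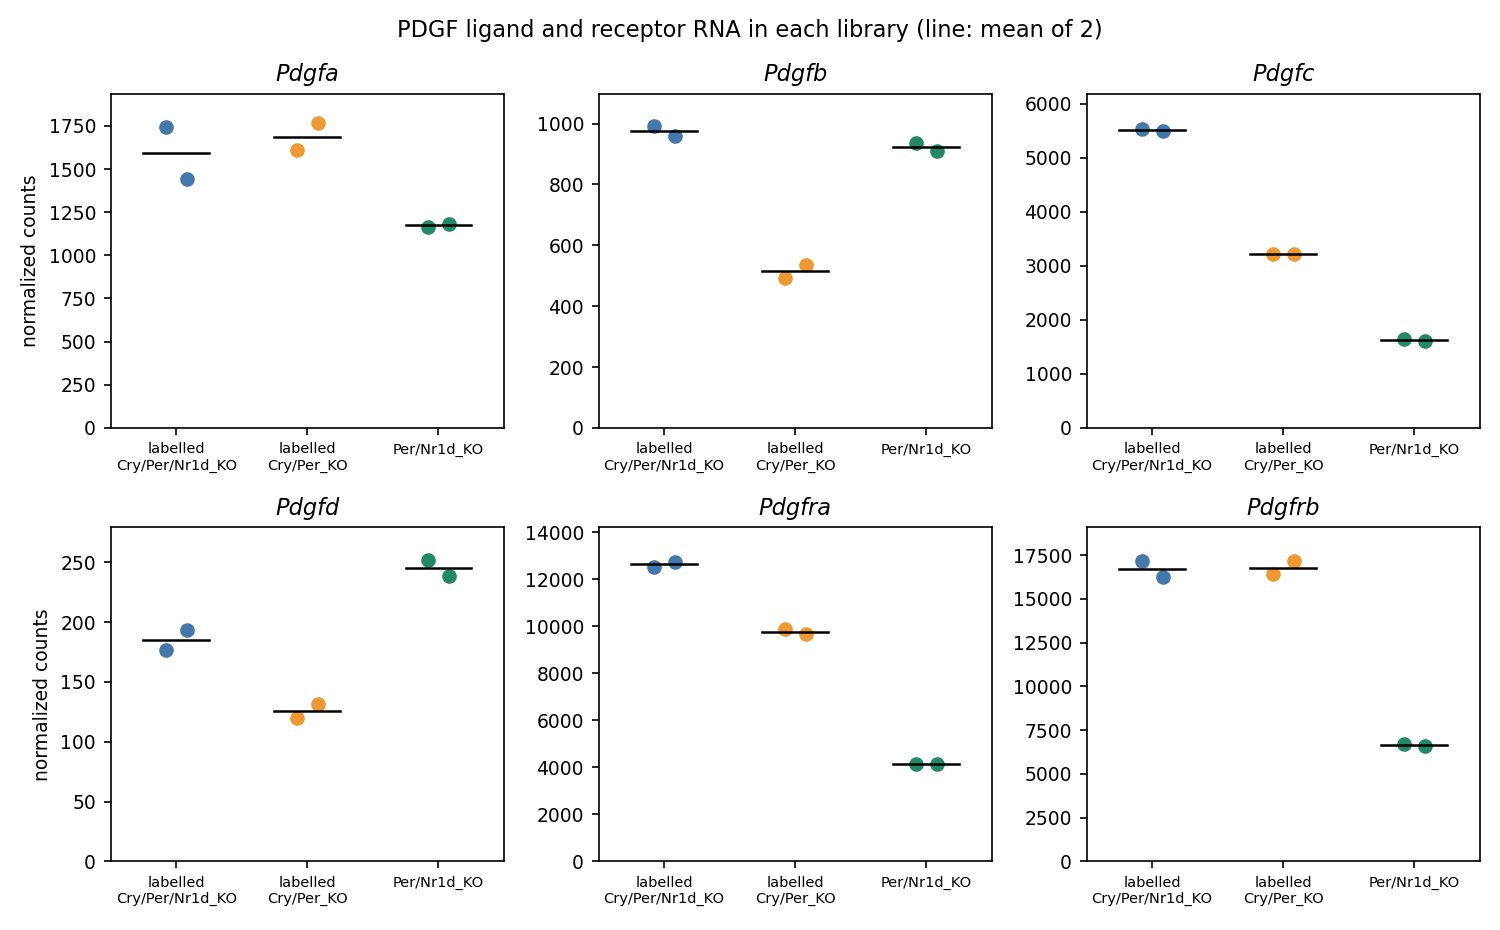
Normalized counts (linear axes from 0) of each PDGF gene in the 6 libraries, by genotype label. Points are libraries and lines are means of 2. Pdgfc, Pdgfra and Pdgfrb sit lowest in Per/Nr1d_KO, where Pdgfra reads 4140 and 4148.

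Pdgfa encodes the A chain, a ligand of PDGFRα (Entrez 18590, chr5:138976014-139000792 of GRCm38, minus strand). It gave 1745 and 1445 normalized counts in the pair labelled Cry/Per/Nr1d_KO, 1609 and 1764 in the pair labelled Cry/Per_KO, and 1164 and 1184 in Per/Nr1d_KO. The first 2 pairs overlapped and both Per/Nr1d_KO libraries lay below them. On the log2 scale, Cry/Per_KO minus Cry/Per/Nr1d_KO was 0.08 with a 95% confidence interval from -0.10 to 0.25 (edgeR, Benjamini-Hochberg adjusted p = 0.39). This difference was 0.22 without Cry/Per/Nr1d_KO replicate 1 and -0.05 without replicate 2. Per/Nr1d_KO minus Cry/Per/Nr1d_KO was -0.45 (SE 0.084, adjusted p = 1.9e-04) and Per/Nr1d_KO minus Cry/Per_KO was -0.52 (SE 0.084, adjusted p = 3.3e-05), both inside the fold limit. Of its exon bases, 26.1% are shared with 6330403L08Rik on the opposite strand, and the strand setting of the authors' counting was not stated, so reads of that gene cannot be separated from it. The same holds for 2.89% of the exon bases of Pdgfc and 6.21% of those of Pdgfra, while Pdgfb, Pdgfd and Pdgfrb share none.

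Pdgfb encodes the B chain, which endothelial cells release to attract pericytes (Entrez 18591, chr15:79995865-80024614, minus strand). It gave 992.6 and 958.4 normalized counts in the pair labelled Cry/Per/Nr1d_KO, 493 and 535 in the pair labelled Cry/Per_KO, and 936.7 and 909 in Per/Nr1d_KO. The Cry/Per_KO pair stood apart below the other 4 libraries. Pdgfb was 1.90-fold lower in the pair labelled Cry/Per_KO than in that labelled Cry/Per/Nr1d_KO (log2 -0.92, SE 0.079, edgeR, Benjamini-Hochberg adjusted p = 5.0e-08), and 1.79-fold higher in Per/Nr1d_KO than in Cry/Per_KO (log2 0.84, SE 0.079, adjusted p = 8.9e-08). The second call rested on Cry/Per_KO replicate 1, since without it the log2 difference was 0.78, inside the limit. The targeted genes went against these labels, and with the labels exchanged Pdgfb is lowest in Cry/Per/Nr1d_KO and the first difference turns to 0.92. Between Per/Nr1d_KO and Cry/Per/Nr1d_KO the log2 difference was -0.08, with a 95% interval from -0.24 to 0.08 (adjusted p = 0.32).

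The median of chromosome 15 lay on the same side as Pdgfb. Over 459 tested genes of that chromosome the median log2 difference was -0.29 for Cry/Per_KO minus Cry/Per/Nr1d_KO and 0.35 for Per/Nr1d_KO minus Cry/Per_KO. With the chromosome median subtracted, the Pdgfb differences were -0.63 and 0.49, and neither passed the fold limit. Chromosome copy number was not tested.

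Pdgfc encodes a latent ligand of PDGFRα that tissue plasminogen activator is known to cleave (Entrez 54635, chr3:81036416-81214040, plus strand). It showed the largest fold between lines of the 6 genes. It gave 5536 and 5497 normalized counts in the pair labelled Cry/Per/Nr1d_KO, 3215 and 3217 in the pair labelled Cry/Per_KO, and 1645 and 1611 in Per/Nr1d_KO. The 3 pairs were apart from one another and each pair agreed closely. Pdgfc fell 3.39-fold from Cry/Per/Nr1d_KO to Per/Nr1d_KO (log2 -1.76, SE 0.050, edgeR, Benjamini-Hochberg adjusted p = 4.9e-14) and 1.98-fold from Cry/Per_KO to Per/Nr1d_KO (log2 -0.98, SE 0.050, adjusted p = 5.4e-11). Between Cry/Per_KO and Cry/Per/Nr1d_KO it differed by -0.78 (SE 0.047, adjusted p = 1.1e-09), just inside the fold limit, and there the median of chromosome 3 was -0.65. The median over 577 tested genes of chromosome 3 lay on the other side, at 0.24 and 0.88 in the comparisons with Per/Nr1d_KO. The 2 tested genes within 1 Mb lay on the same side as Pdgfc there, with medians of -0.85 and -2.18. Of these 2 genes, 1 and 1 were called lower and 1 and 0 higher, beside 9.35% and 13.8% of all genes lower. Between Cry/Per_KO and Cry/Per/Nr1d_KO their median was 1.33, opposite to Pdgfc.

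Pdgfd encodes a latent ligand of PDGFRβ that urokinase is known to activate (Entrez 71785, chr9:6168363-6534284, plus strand). It was the least abundant of the 6 genes in every line. It gave 176.7 and 193.2 normalized counts in the pair labelled Cry/Per/Nr1d_KO, 120.2 and 131.6 in the pair labelled Cry/Per_KO, and 252.2 and 238.3 in Per/Nr1d_KO. The 3 pairs did not overlap, and Per/Nr1d_KO was highest. Pdgfd was 1.94-fold higher in Per/Nr1d_KO than in Cry/Per_KO (log2 0.95, SE 0.13, edgeR, Benjamini-Hochberg adjusted p = 5.0e-06). It differed by 0.41 (adjusted p = 0.0061) from Cry/Per/Nr1d_KO to Per/Nr1d_KO and by -0.55 (adjusted p = 0.0016) from Cry/Per/Nr1d_KO to Cry/Per_KO, both inside the limit. The median over 657 tested genes of chromosome 9 went the other way, at -0.46 and 0.38 in these 2 comparisons and -0.84 in the called one. After its subtraction the Pdgfd differences were 0.87 and -0.92, past the limit, and 1.79 in the called one. The 6 tested genes within 1 Mb had medians of 0.76, 0.90 and 0.04 in the same order.

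Pdgfra encodes PDGFRα (Entrez 18595, chr5:75151322-75198206, plus strand). It gave 12541 and 12743 normalized counts in the pair labelled Cry/Per/Nr1d_KO, 9870 and 9673 in the pair labelled Cry/Per_KO, and 4140 and 4148 in Per/Nr1d_KO. The 3 pairs were in the same order as for Pdgfc and did not overlap. Pdgfra fell 3.05-fold from Cry/Per/Nr1d_KO to Per/Nr1d_KO (log2 -1.61, SE 0.043, edgeR, Benjamini-Hochberg adjusted p = 2.6e-14) and 2.36-fold from Cry/Per_KO to Per/Nr1d_KO (log2 -1.24, SE 0.043, adjusted p = 5.1e-13). The difference between Cry/Per_KO and Cry/Per/Nr1d_KO was -0.37 (SE 0.041, adjusted p = 9.9e-07), inside the limit. The 7 tested genes within 1 Mb had medians of -0.12 and -0.14 in the comparisons with Per/Nr1d_KO. Of these 7, 0 were called lower in either, beside 9.35% and 13.8% of all genes, and 1 was called higher against Cry/Per_KO. With so few genes, nothing is read from these counts.

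Pdgfrb encodes PDGFRβ (Entrez 18596, chr18:61045127-61085067, plus strand). It gave 17142 and 16251 normalized counts in the pair labelled Cry/Per/Nr1d_KO, 16399 and 17166 in the pair labelled Cry/Per_KO, and 6713 and 6587 in Per/Nr1d_KO. The first 2 pairs overlapped, with a log2 difference of 0.01 and a 95% interval from -0.09 to 0.10 (edgeR, Benjamini-Hochberg adjusted p = 0.89). Pdgfrb fell 2.51-fold from Cry/Per/Nr1d_KO to Per/Nr1d_KO (log2 -1.33, SE 0.046, adjusted p = 5.8e-13) and 2.52-fold from Cry/Per_KO to Per/Nr1d_KO (log2 -1.34, SE 0.046, adjusted p = 4.2e-13). Its 17 tested neighbours within 1 Mb had medians of -0.68 and -0.63 in these comparisons, and 4 and 7 of them were called lower and 1 and 2 higher, where 9.35% and 13.8% of all genes were called lower. With the median of chromosome 18 subtracted, the Pdgfrb differences were -1.12 and -0.89, still past the fold limit.

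**Figure D2:**
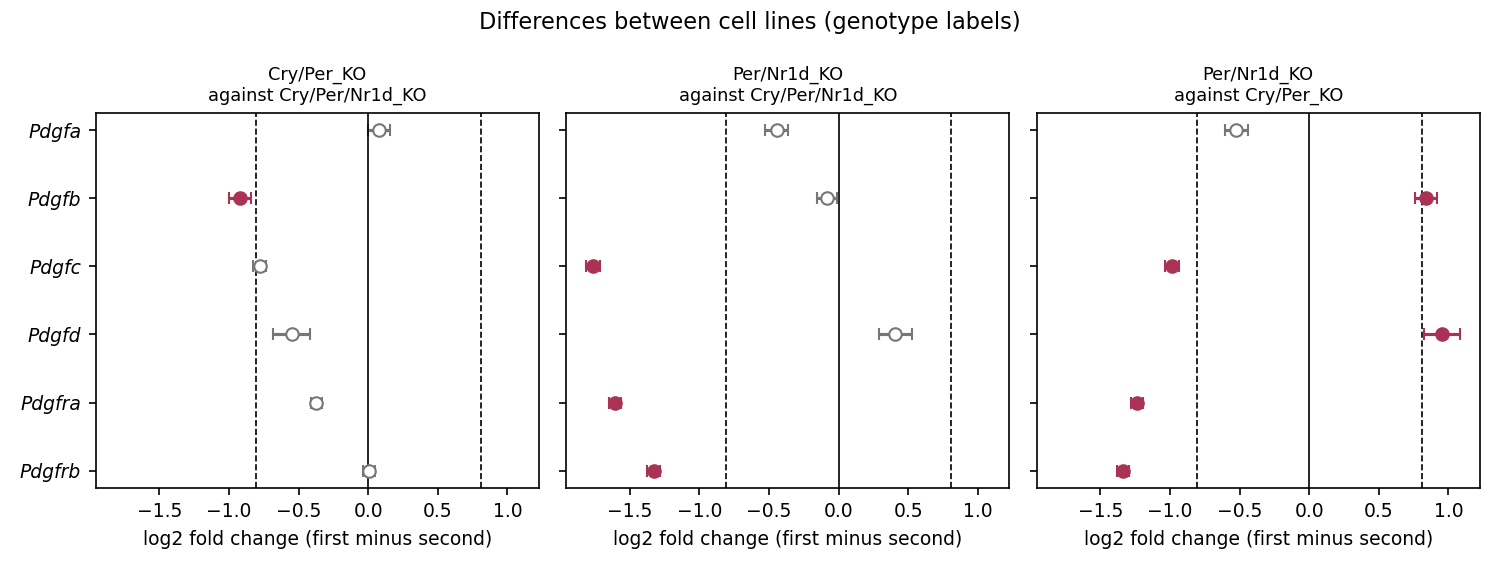
Log2 fold changes of the 6 PDGF genes in each pair of lines, as the first line minus the second. Bars are the standard error, dashed lines the fold limit of 0.81 and filled points the called genes. Pdgfc, Pdgfra and Pdgfrb lie past the left limit in both comparisons with Per/Nr1d_KO, from -0.98 to -1.76.

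The stretches upstream of a RefSeq start of Pdgfc and Pdgfra are shown. These were the ligand and the receptor with the largest falls from the pair labelled Cry/Per/Nr1d_KO to Per/Nr1d_KO, in the same order of lines. From the pair labelled Cry/Per_KO, Pdgfrb fell more than Pdgfra (log2 -1.34 and -1.24). Of the 6 genes, 4 have a window in the RefSeq table of GRCm38.p6 that is used here, and the 250 bases before the start are given 5′ to 3′ on the plus strand. The stretch of Pdgfc is chr3:81036166-81036415, directly before the gene. The stretch of Pdgfra is chr5:75152001-75152250, which lies inside the RefSeq span of the gene before one of its starts. Neither overlaps a GENCODE exon. Capitals would mark a motif, and neither stretch holds one of those searched.
Pdgfc: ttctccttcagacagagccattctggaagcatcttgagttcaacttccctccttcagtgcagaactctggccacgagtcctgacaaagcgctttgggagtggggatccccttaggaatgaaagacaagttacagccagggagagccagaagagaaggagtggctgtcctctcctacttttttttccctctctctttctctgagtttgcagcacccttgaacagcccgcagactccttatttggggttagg
Pdgfra: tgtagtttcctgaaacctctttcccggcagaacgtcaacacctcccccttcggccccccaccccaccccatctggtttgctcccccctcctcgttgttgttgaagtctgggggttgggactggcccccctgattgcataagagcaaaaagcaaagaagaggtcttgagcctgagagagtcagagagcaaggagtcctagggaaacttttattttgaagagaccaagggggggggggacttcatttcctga

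The 300-base windows, which add 50 bases after the start, were searched on both strands for clock-related and core promoter letters. These were the E-box CACGTG (in 7.15% of all 32851 windows of the table), its variant CACGTT (4.68%), the D-box TTATGTAA (0.938%), the receptor half-site AGGTCA (16.3%), TATAAA (13.6%) and the GC box GGGCGG (35.7%). None occurred in the windows of Pdgfc and Pdgfra, which says only that these letters are not in those windows. The Pdgfd window held TATAAA, 160 bases before the start. Of the 2 Pdgfa windows, one held the GC box on the opposite strand 93 and 86 bases before its start, and the other held 1 GC box 60 bases before. Base composition separated Pdgfa from the rest, with GC contents of 73.3% and 67% against 55% for Pdgfc, 56.7% for Pdgfd, 51% for Pdgfra and a median of 52.7% over all windows.

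Set against all genes, these counts read as follows. Of the 6 genes, 1 was called lower and 0 higher in Cry/Per_KO against Cry/Per/Nr1d_KO, where 8.95% of all genes tested were called lower and 7.86% higher. In Per/Nr1d_KO against Cry/Per/Nr1d_KO, 3 of 6 were called lower and 0 higher, beside 9.35% lower and 11.3% higher of all genes. In Per/Nr1d_KO against Cry/Per_KO, 3 of 6 were called lower and 2 higher, beside 13.8% and 15.2%. With the labels exchanged, 5 of 6 were called in Per/Nr1d_KO against Cry/Per/Nr1d_KO, with Pdgfb (0.84) and Pdgfd (0.95) higher, and 3 of 6 against Cry/Per_KO. DESeq2 gave the same numbers for the 6 genes, and at an unadjusted p under 0.05 in edgeR and any fold, 0 and 1 were higher in the first 2 comparisons. With no limit on the fold the background was high, since an adjusted p under 0.05 (edgeR, Benjamini-Hochberg) was reached by 76.4%, 75.8% and 82.1% of genes in the 3 comparisons, and by 4, 5 and 6 of the PDGF genes. The comparisons share libraries in pairs, so they are not independent of one another.

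Compared per length, as normalized counts per kb of exon, Pdgfrb was the most abundant of the 6 genes in all 3 lines. Its level per kb was 3048 ± 115 (SD, n = 2) in Cry/Per/Nr1d_KO, 3064 ± 99.0 in Cry/Per_KO and 1214 ± 16.2 in Per/Nr1d_KO. That placed it at percentiles 91.4, 92.1 and 72.4 among the 11389 tested genes with an exon length. Pdgfra came second, at 1261 ± 14.2, 974.8 ± 13.9 and 413 ± 0.59 per kb, which are percentiles 74.6, 67.9 and 40.1. The receptor levels thus fell in rank as well as in count, from the upper part of the distribution towards its middle.

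Among the ligands, Pdgfc ranked above Pdgfa in the pair labelled Cry/Per/Nr1d_KO (1084 ± 5.3 and 511 ± 68 per kb, SD, n = 2) and the pair labelled Cry/Per_KO (632 ± 0.18 and 541 ± 35). In Per/Nr1d_KO the order turned, with Pdgfa at 376 ± 4.5 and Pdgfc at 320 ± 4.7. Every pair of neighbours in the order was further apart than the SD of either gene. Pdgfb lay at 234 ± 5.8, 124 ± 7.2 and 222 ± 4.7, and Pdgfd at 58.6 ± 3.7, 39.9 ± 2.5 and 77.8 ± 3.1.

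**Figure D3:**
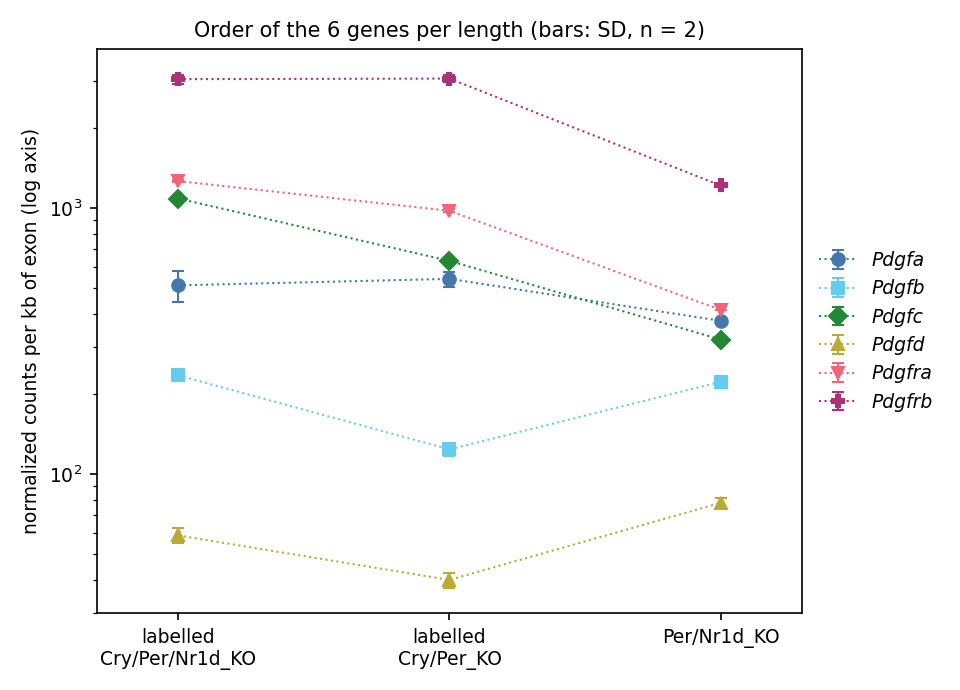
Normalized counts per kb of exon (log axis) of the 6 genes by genotype label. Points are means and bars SDs of 2 libraries, and dotted lines only join the same gene. Pdgfrb is highest and Pdgfd lowest throughout, and Pdgfc crosses below Pdgfa in Per/Nr1d_KO.

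The mixture of ligand RNA also differed between lines. Pdgfc made up 56.0% and 58.9% of the summed ligand counts per kb in the pair labelled Cry/Per/Nr1d_KO, 48.4% and 46.2% in the pair labelled Cry/Per_KO, and 32.3% and 32.0% in Per/Nr1d_KO. Pdgfb took 12.3% and 12.6%, then 9.08% and 9.40%, and then 22.5% and 22.1%. Pdgfd made up at most 3.34% in the other lines and 7.99% and 7.63% in Per/Nr1d_KO. These are shares of a sum that itself went from 1942 and 1835 per kb in Cry/Per/Nr1d_KO through 1304 and 1368 in Cry/Per_KO to 1001 and 990.1 in Per/Nr1d_KO.

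The balance of the receptors differed less between Per/Nr1d_KO and the other lines than the receptor levels did, but not between those other lines. The ratio of Pdgfra to Pdgfrb per kb was 0.400 and 0.429 in the pair labelled Cry/Per/Nr1d_KO, 0.329 and 0.308 in the pair labelled Cry/Per_KO, and 0.337 and 0.344 in Per/Nr1d_KO. The pairs did not overlap, and the Cry/Per/Nr1d_KO pair was highest. As log2 ratios these are -1.27 ± 0.071, -1.65 ± 0.067 and -1.55 ± 0.021 (SD, n = 2). A two-sided exact permutation test over the 15 splits of 6 libraries gave p = 0.0667, the smallest that this design allows, and so adds nothing to the values themselves. The summed receptor counts per kb were 4380 and 4238, 3978 and 4099, and 1638 and 1616 in the same order of lines.

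**Figure D4:**
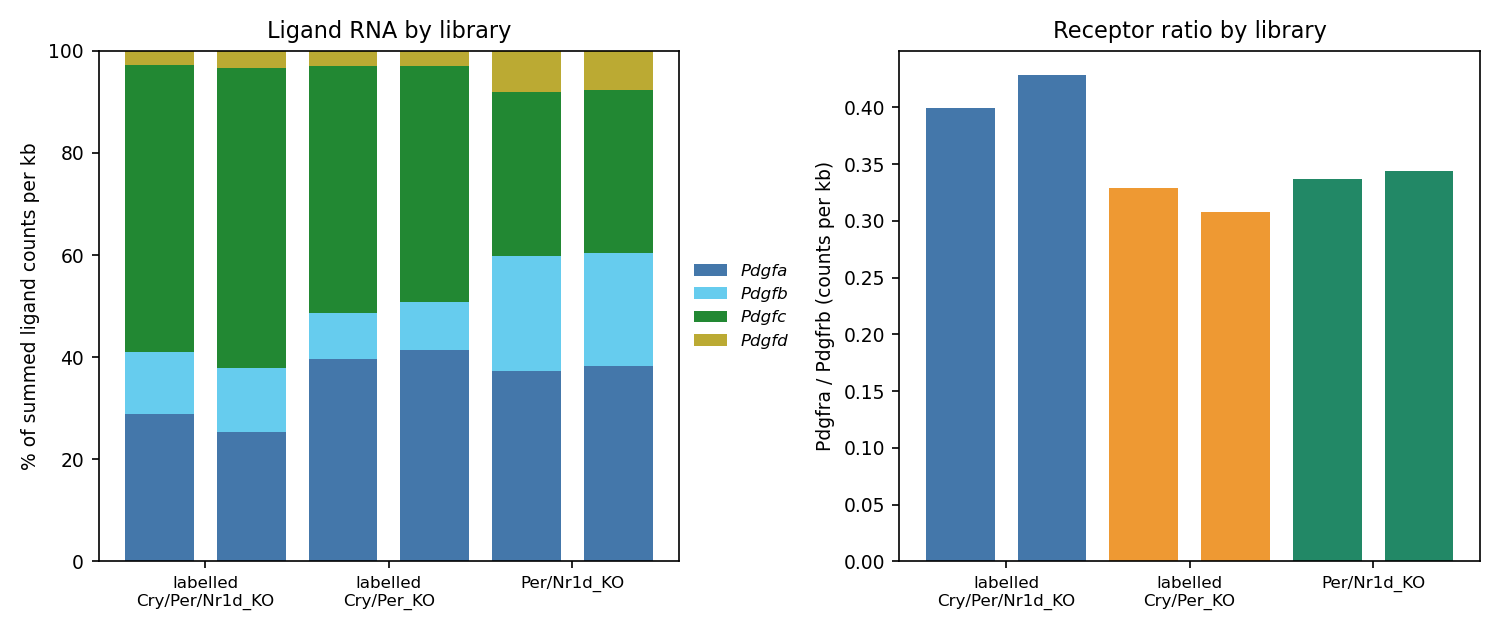
Left, shares of the 4 ligand genes in the summed ligand counts per kb, 1 bar per library. Right, the ratio of Pdgfra to Pdgfrb per kb in each library, from 0.308 to 0.429, with the libraries labelled Cry/Per/Nr1d_KO highest.

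Genes with a pattern over the 6 libraries close to that of each PDGF gene were sought by the root mean square difference of centred log2 CPM, among 11933 other genes. The nearest to Pdgfra was Rras2, a RAS-related GTPase, at 0.022. For Pdgfrb the nearest were Phlpp1, a phosphatase of AKT, at 0.050 and Map3k14 at 0.055. Pdgfc lay nearest to Map3k6 at 0.033 and Adamtsl3 at 0.039, and Pdgfb to Rtca at 0.025 and Clk2 at 0.028. For Pdgfa these were Slc25a39 and Atg4d (0.040 and 0.045), for Pdgfd Rrnad1 and Gstcd (0.040 and 0.045), and the other one for Pdgfra was Rab39b (0.046). This is a description over 6 libraries of 3 lines, where any gene that differs mainly by line can lie close.

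The counts of called genes in the lists that follow stand beside 7.86% of all tested genes higher and 8.95% lower in Cry/Per_KO against Cry/Per/Nr1d_KO, 11.3% and 9.35% in Per/Nr1d_KO against Cry/Per/Nr1d_KO, and 15.2% and 13.8% in Per/Nr1d_KO against Cry/Per_KO. The medians over all genes were -0.0033, 0.01 and 0.03. Counts at an unadjusted p stand beside 76.4%, 75.8% and 82.1% of all genes with an adjusted p under 0.05 (edgeR, Benjamini-Hochberg) at any fold. No test compared a list with these, and nothing is read as particular to a list. The genes that process or bind PDGF ligands changed in both directions. Of 12 listed, 10 were tested, and 4 were higher and 2 lower in Per/Nr1d_KO than in Cry/Per/Nr1d_KO, with a median log2 difference of 0.41 beside 0.01 for all genes. Against Cry/Per_KO, 5 were higher and 1 lower (median 0.92 beside 0.03), and between Cry/Per_KO and Cry/Per/Nr1d_KO 0 were higher and 2 lower (median -0.18 beside -0.0033, with 3 higher at an unadjusted edgeR p under 0.05 and 0 by DESeq2). Lrp1, a PDGFRβ co-receptor, was not called in any comparison. Sparc, a matrix protein that binds PDGF-B and the most abundant of the list per kb, gave means of 68381, 33329 and 99831 normalized counts for Cry/Per/Nr1d_KO, then Cry/Per_KO, then Per/Nr1d_KO.

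Both plasminogen activators, which are known to activate the latent ligands, were higher in Per/Nr1d_KO than in Cry/Per/Nr1d_KO. Plau, which encodes urokinase, gave means of 1655, 1651 and 4865 normalized counts in the same order, a rise of 1.56 on the log2 scale in both comparisons with Per/Nr1d_KO. Plat, which encodes tissue plasminogen activator, gave 3760, 4788 and 7682, which was called against Cry/Per/Nr1d_KO (log2 1.03) and not against Cry/Per_KO (0.68). Pcsk6, a proprotein convertase, was highest in Cry/Per/Nr1d_KO at 3239, beside 862 and 1838. Cspg4 (NG2), a surface proteoglycan of pericytes that binds PDGF-A and is also on the list of mural markers, fell with the receptors to 3812 in Per/Nr1d_KO from 11441 and 15101. Pdgfrl, a receptor-like gene without a kinase, and the co-receptor Nrp1 rose there, Pdgfrl to 969 from 267 and 384 and Nrp1 to 9088 from 5093 and 3630.

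Of the signalling adaptors and enzymes downstream of the receptors, all 21 were tested, and 0 were called between Cry/Per_KO and Cry/Per/Nr1d_KO. In Per/Nr1d_KO 2 were higher than in Cry/Per/Nr1d_KO and 0 lower, and 2 were higher and 1 lower than in Cry/Per_KO, with medians of 0.16, 0.01 and -0.15 in the 3 comparisons. DESeq2 gave the same counts. At an unadjusted edgeR p under 0.05 and any fold, 12 of the 21 were higher and 2 lower in the first comparison. In the second, 8 were higher and 9 lower. Of all genes, 76.4% and 75.8% passed even an adjusted p under 0.05 at any fold in these comparisons. Nck2, an SH2-SH3 adaptor, rose to 1818 normalized counts from 454 and 742. Pik3r1, a regulatory subunit of PI3-kinase, rose to 8004 from 3046 against Cry/Per/Nr1d_KO, and the adaptor Shc1 (log2 0.83) was higher and the RAS GTPase activator Rasa1 (-0.82) lower against Cry/Per_KO. Akt1 was the most abundant by counts per kb and was not called.

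Among 12 negative regulators of receptor signalling, all tested, 0 were higher and 3 lower in Cry/Per_KO than in Cry/Per/Nr1d_KO, 1 higher and 3 lower in Per/Nr1d_KO than in Cry/Per/Nr1d_KO, and 3 higher and 1 lower in Per/Nr1d_KO than in Cry/Per_KO. The median log2 differences were -0.10, -0.03 and -0.06, and in the first comparison 3 were higher at an unadjusted edgeR p under 0.05 and 0 by DESeq2. In Per/Nr1d_KO against Cry/Per_KO, DESeq2 called 3 higher and 2 lower. The members called lower in edgeR were Dusp6, Spry1 and Spry4, which MAP kinase activity is known to induce as feedback inhibitors. Such inhibitors were not tested as a group, and Spry2 and Errfi1 were not called lower. Spry4 gave means of 457, 236 and 81.5 normalized counts for Cry/Per/Nr1d_KO, then Cry/Per_KO, then Per/Nr1d_KO, the same order as Pdgfra and Pdgfc, and Dusp6 gave 2752, 1364 and 1030. Spry1, which passed the filter only through Cry/Per/Nr1d_KO and so had to differ, gave 234, 83.0 and 89.6. It is among the 3 lower genes in both comparisons with Cry/Per/Nr1d_KO. Cblb, a ubiquitin ligase that marks receptors for degradation, rose to 3779 in Per/Nr1d_KO from 1156 and 1060, and against Cry/Per_KO the phosphatase Ptpn1 rose to 8527 from 4234. Spry2, another Sprouty gene, was higher against Cry/Per_KO (log2 0.84), opposite to Spry4. Errfi1 was the most abundant of the list by counts per kb and was not called.

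The VEGF family is related to the PDGF family in ligand and receptor structure. Of 11 genes listed, 7 were tested, and 0 were higher and 1 lower, 1 higher and 2 lower, and 2 higher and 3 lower in the 3 comparisons, with medians of -0.08, 0.27 and -0.14, and in the first 3 were higher at an unadjusted edgeR p under 0.05 and 0 by DESeq2. Vegfc fell in Per/Nr1d_KO to 279 normalized counts from 1417 and 1338. Flt1, a VEGF receptor, fell to 85.1 from 2508 and 1566, a larger log2 fall (-4.88 and -4.20) than that of either PDGF receptor. Flt4, another VEGF receptor, rose to 2131 from 845 and 173. Kit, a receptor kinase gene that neighbours Pdgfra on chromosome 5, had 0 counts in all 6 libraries, which allows up to 3 per library.

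Markers of the labelled cell type were split, and so were mural markers. Of 13 fibroblast markers 9 were tested, and Col1a1, Col1a2, Fn1 and Vim were abundant in every line, while Thy1 stayed at or under 4.22 normalized counts on average and Lum was at 0 in Cry/Per_KO and Per/Nr1d_KO. In Per/Nr1d_KO 4 of the 9 were higher and 4 lower than in Cry/Per/Nr1d_KO (median -0.52), and 4 higher and 2 lower than in Cry/Per_KO (median 0.56). Between Cry/Per_KO and Cry/Per/Nr1d_KO 1 was higher and 3 lower (median -0.24). Col3a1 rose to 43303 in Per/Nr1d_KO from 819 and 292, while S100a4 fell to 8870 from 63132 and 28657 and Pdpn to 3091 from 9720 and 20075. Postn was highest in Cry/Per/Nr1d_KO, at 25628. Summed fibroblast markers were 1737811 to 1754384 in Per/Nr1d_KO, 990390 to 1036883 in Cry/Per/Nr1d_KO and 897321 to 915872 in Cry/Per_KO, sums in which Fn1 and Col1a1 were the largest terms in Per/Nr1d_KO.

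Of 16 mural markers 7 were tested. In Per/Nr1d_KO 3 were higher and 2 lower than in Cry/Per/Nr1d_KO (median 0.56) and the same numbers than in Cry/Per_KO (median 0.79), and between the other 2 lines 1 was higher and 3 lower (median -0.76). Tagln, a smooth muscle actin-binding protein, fell with Pdgfrb to 8160 in Per/Nr1d_KO from 54935 and 32480, whereas Anpep rose to 1184 from 329 and 65.9. Cnn1, which passed the filter only through Per/Nr1d_KO and so had to differ, averaged 3660 there beside 16.0 and 21.2. Without it 2 mural markers were higher in each comparison with Per/Nr1d_KO. The medians of 0.56 and 0.79 include Cnn1, so they are not read as a shift of the list. Against Cry/Per/Nr1d_KO the other tested markers lay on both sides of 0. They were Tagln (-2.75), Cspg4 (-1.59), Acta2 (-0.54), Mcam (0.56), Notch3 (1.77) and Anpep (1.85). Notch3 was lowest in Cry/Per/Nr1d_KO, at 847 beside 1933 and 2900. The most abundant, Acta2, gave 117761, 46824 and 80839 and was called lower only in Cry/Per_KO against Cry/Per/Nr1d_KO among the comparisons made. The defining pericyte markers were near the floor, with Rgs5 at most 13.2 on average and Kcnj8 and Abcc9 at 0 outside Cry/Per/Nr1d_KO, where they were 13.8 and 34.9. Summed mural markers were 182620 to 192215 in Cry/Per/Nr1d_KO, 95642 to 99564 in Cry/Per_KO and 103430 to 103563 in Per/Nr1d_KO, which is not the order of Pdgfrb.

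**Figure D5:**
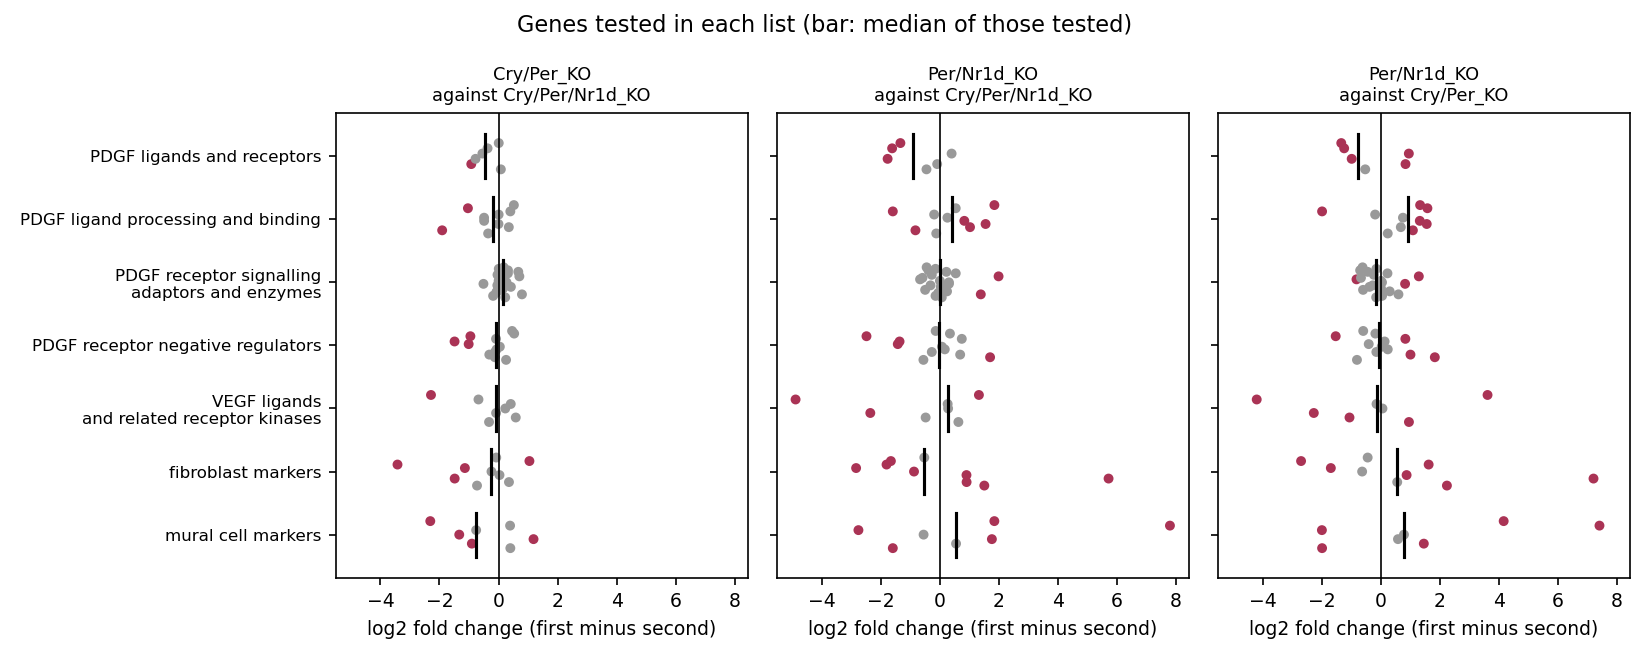
Log2 fold changes of the tested genes of each list (points, called genes in red) in the 3 pairs of lines, with the median of those tested as a bar (Cnn1 included among mural markers). The adaptors cluster near 0, and the fibroblast and mural markers spread widely on both sides.

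Markers of other cell types were mostly under the filter. Of 8 endothelial markers 1 was tested, Flt1, and it was lower in Per/Nr1d_KO in both comparisons, with Tie1 at 0 in all libraries and summed levels of 2710 to 2746, 1647 to 1655 and 207 to 227. Of 5 immune markers Cd68 alone was tested and was higher in Per/Nr1d_KO in both comparisons, with Ptprc at most 3.24 on average and summed levels of 186 to 187, 207 to 219 and 315 to 340. None of 6 epithelial, 3 oligodendrocyte precursor or 4 muscle precursor markers was tested, and their summed levels reached 141, 6.21 and 108. Of these, Pax7 averaged 101 normalized counts in Cry/Per/Nr1d_KO and was 0 in the other lines. The part of such differences in the PDGF values was not tested.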

How the data were processed

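Poly(A) RNA of 6 libraries was prepared with a stranded TruSeq kit and sequenced as single-end 50-base reads. STAR (mapping to mm10) and featureCounts were the tools of the authors. Their deposited files hold raw counts per Entrez Gene ID, 1 file a library. The submitters' processing notes also name DESeq2 1.22.2. The authors' deposited DESeq2 tables hold base means, log2 fold changes and p-values and were not used. Entrez IDs were matched to symbols with a RefSeq table (25275 of 27179, 93%), and exon lengths came from GENCODE vM21 on GRCm38.

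The tests used edgeR 4.0.16 and limma 3.58.1 under R 4.3.3. The filter kept genes whose mean reached 100 normalized counts. All 6 libraries entered a single quasi-likelihood fit with TMM scaling and 3 groups by genotype label. P-values were adjusted by Benjamini-Hochberg over all genes tested. SEs are the log2 fold change divided by the square root of F. The scripts were tested on simulated data. DESeq2 1.42.0, other filters, a replicate block, each library left out, exchanged labels and subtraction of the chromosome median were alternatives. All 6 PDGF genes were named. From each list the called genes with the 2 largest rises and falls in a comparison and the most abundant gene were eligible to be named, and other genes were named after their values were seen. The members and lists were chosen with earlier results of these data known. Replicates of a line differed by more than counting noise (chi-square per degree of freedom 6.69 to 13.2). They were separate RNA preparations of 1 line, so p-values measure only the spread between preparations. Raw counts of the 6 genes ran from 108 to 19307 per library, and with 2 libraries per line every SD rests on 2 values.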

Additional observations from a re-analysis of the deposited data

How the results depend on the processing

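With DESeq2 at an adjusted p under 0.05, DESeq2 size factors, a lower or no filter on counts, or only the compared lines in the fit, every called PDGF gene kept its direction and no call was gained or lost, although the adjusted p of Pdgfd in Per/Nr1d_KO against Cry/Per/Nr1d_KO, inside the fold limit, went from 0.0061 in edgeR to 0.059 in DESeq2. No day or batch was stated for libraries of the same replicate number, and deviations of same-numbered libraries correlated at -0.21, -0.10 and -0.02. A fit with the replicate number as a block changed no PDGF call and gave 1, 3 and 5 called genes for Cry/Per_KO against Cry/Per/Nr1d_KO, Per/Nr1d_KO against Cry/Per/Nr1d_KO and Per/Nr1d_KO against Cry/Per_KO. Under the stricter criteria of the study (DESeq2 at an adjusted p under 1e-22) 0, 3 and 3 were called, and the same numbers came from a test against the fold limit itself (edgeR's glmTreat), which lost Pdgfb and Pdgfd. With no limit on the fold 4, 5 and 6 passed. Leaving out each library gave 1 to 1, 3 to 3 and 4 to 5 genes, and the 4 came without Cry/Per_KO replicate 1. With the genotype labels exchanged, 1, 5 and 3 were called, and the log2 difference of Pdgfb became 0.92, 0.84 and -0.083. Subtracting the chromosome median lost the Pdgfb calls (-0.63 and 0.49) and added Pdgfd (-0.92 and 0.87). That setting shifted only the fold and kept the adjusted p of the unshifted difference, so its calls are not new tests. The log2 ratio of Pdgfra to Pdgfrb without division by length was -0.40 in Cry/Per/Nr1d_KO, -0.78 in Cry/Per_KO and -0.68 in Per/Nr1d_KO. With exchanged labels the log2 ratio per kb was -1.65 in Cry/Per/Nr1d_KO and -1.27 in Cry/Per_KO. The falls of Pdgfc, Pdgfra and Pdgfrb in Per/Nr1d_KO remained called under every alternative run. The lowest raw count of a PDGF gene was 108, of Pdgfd. The limits are 2 preparations per line and 1 line per genotype.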
